A study of Macaca mulatta with 28 samples.

Results

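HMGCS1, SQLE, FDFT1, IDI1, DHCR7, INSIG1 and SREBF2 are 7 genes of cholesterol supply, of which 5 encode enzymes of synthesis and INSIG1 and SREBF2 encode proteins that control it. They were chosen by name from 16885 transcripts that were listed with a gene symbol. All 7 passed the filter on low counts, which asked for at least 5 counts in at least 3 animals. None of the 7 takes cholesterol up from outside the cell.

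RNA had been sequenced from punches of the VTA (ventral tegmental area, where dopamine neurons that project to the striatum and cortex have their somata) in 28 adult male wild-type rhesus macaques, with 1 library per animal. The 17 drinkers had learned to drink 4% (w/v) ethanol by choice, had it within reach for 22 h per day over 12 months and again between repeated abstinence periods, and were sampled at the end of a 30 day abstinence, while the 11 controls had either been given calories to match or had been kept as housing controls, and the labels do not tell these apart. The labels sort the animals into 11 Control, 1 Low, 2 Binge, 5 Heavy and 9 Very Heavy drinkers. The study ran 2 cohorts, and its source data name the cohort of each drinker and list each control beside the drinkers of 1 cohort. By these, 8 drinkers (4 Heavy, 3 Very Heavy and the Low drinker) and 8 controls were in cohort 1, and 9 drinkers (6 Very Heavy, both Binge drinkers and 1 Heavy) and 3 controls were in cohort 2. Total counts lay between 12303914 and 27338669 per animal, of which 36.4% to 60.6% fell on transcripts of the mitochondrial genome. Of 10 dopamine neuron markers, TH, SLC6A3, SLC18A2, DDC, FOXA2 and KCNJ6 had counts in every animal. ALDH1A1 was at 0 in 7 animals, NR4A2 in 6, PITX3 in 2 and EN1 in 1. The sum of the 10 ranged from 33.88 to 1698 CPM (counts scaled to a common library size). Animals are biological replicates, and in such bulk tissue fewer cells of a type and less RNA per cell cannot be told apart.

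Cells build cholesterol from acetyl-CoA. HMGCS1 makes HMG-CoA, IDI1 interconverts the isoprenoid building blocks, FDFT1 joins farnesyl units into squalene, SQLE oxidizes squalene and DHCR7 carries out the last reduction to cholesterol. SREBF2 encodes the transcription factor SREBP-2, which switches on most of these genes when membrane sterol is low, and INSIG1, itself a target, holds SREBP-2 back in the endoplasmic reticulum when sterol is plentiful. The brain makes nearly all of its own cholesterol, much of it for myelin, because plasma lipoproteins do not cross the blood-brain barrier.

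The transcripts listed are ENSMMUT00000041755.3 (HMGCS1), ENSMMUT00000005000.4 (SQLE), ENSMMUT00000063140.2 (FDFT1), ENSMMUT00000024066.3 (IDI1), ENSMMUT00000073740.2 (DHCR7), ENSMMUT00000014696.4 (INSIG1) and ENSMMUT00000004743.4 (SREBF2), and coordinates are those of the macaque genome Mmul_10. By the RefSeq annotation, HMGCS1 spans chr6:43297245-43321487 on the minus strand, IDI1 chr9:1764420-1773387 on the minus strand, DHCR7 chr14:3507064-3524508 on the plus strand and INSIG1 chr3:181310955-181323160 on the plus strand. SREBF2 spans chr10:9599436-9679964 on the minus strand, FDFT1 chr8:8738123-8772578 on the minus strand and SQLE chr8:125346002-125370050 on the plus strand. SREBP-2 is known to bind sterol regulatory elements near CCAAT boxes and GC boxes, so windows of 300 bases of the RefSeq genome sequence, from 250 before to 50 after the outermost annotated start, were searched on both strands for the sterol regulatory element as TCACNCCAC, for the CCAAT box by the letters of its name and for the GC box as GGGCGG. The windows of HMGCS1, INSIG1, IDI1 and DHCR7 are shown because their transcripts covaried between animals in both directions, with the sterol regulatory element and the CCAAT box in capitals, the latter as ATTGG where it reads on the other strand. HMGCS1 is at chr6:43321438-43321737 on the minus strand, INSIG1 at chr3:181310705-181311004 on the plus strand, IDI1 at chr9:1773338-1773637 on the minus strand and DHCR7 at chr14:3506814-3507113 on the plus strand.
HMGCS1: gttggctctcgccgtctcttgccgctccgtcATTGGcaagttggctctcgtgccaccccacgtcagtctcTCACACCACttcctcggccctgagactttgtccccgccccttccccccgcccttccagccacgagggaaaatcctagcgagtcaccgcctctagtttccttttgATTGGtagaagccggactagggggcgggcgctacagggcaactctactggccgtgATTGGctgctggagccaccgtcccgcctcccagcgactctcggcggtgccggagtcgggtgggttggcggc
INSIG1: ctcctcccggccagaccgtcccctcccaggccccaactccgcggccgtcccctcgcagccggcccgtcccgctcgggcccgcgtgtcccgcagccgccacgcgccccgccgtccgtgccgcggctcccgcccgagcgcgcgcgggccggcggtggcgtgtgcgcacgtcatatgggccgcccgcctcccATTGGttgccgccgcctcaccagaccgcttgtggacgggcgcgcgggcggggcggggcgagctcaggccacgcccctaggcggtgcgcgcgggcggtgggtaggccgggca
IDI1: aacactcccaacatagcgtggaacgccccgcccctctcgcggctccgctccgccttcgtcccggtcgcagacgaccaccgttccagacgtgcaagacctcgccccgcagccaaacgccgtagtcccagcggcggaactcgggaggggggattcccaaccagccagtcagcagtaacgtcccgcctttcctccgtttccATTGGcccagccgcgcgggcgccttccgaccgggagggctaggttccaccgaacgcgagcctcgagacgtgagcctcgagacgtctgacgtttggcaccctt
DHCR7: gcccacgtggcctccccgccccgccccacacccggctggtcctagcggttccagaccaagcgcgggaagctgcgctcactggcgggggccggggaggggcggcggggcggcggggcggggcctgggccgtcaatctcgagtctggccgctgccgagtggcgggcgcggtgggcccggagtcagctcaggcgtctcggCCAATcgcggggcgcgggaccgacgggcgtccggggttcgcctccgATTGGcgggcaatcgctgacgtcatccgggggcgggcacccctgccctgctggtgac
TCACNCCAC was found in the window of HMGCS1 alone among the 7 genes, at -180 to -172 counted with the start as 0, and in 183 (1.38%) of 13261 windows of tested transcripts. CCAAT stood in the windows of 6 of the 7, all but SREBF2, and in 34.5% of all windows. HMGCS1 and FDFT1 had 3 copies each, SQLE and DHCR7 had 2, and IDI1 and INSIG1 had 1. GGGCGG stood in the windows of all 7 and in 58.1% of all windows. A match describes the letters in this window and is not a measured binding site. The stretches in capitals do not overlap, while neighbouring copies of GGGCGG share a base in DHCR7 and in INSIG1.

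Levels are given as CPM after TMM scaling, which are not divided by transcript length, so they are compared between animals and not between genes. SREBF2 stood at 440.4 ± 46.99 CPM (SD, n = 28), with a lowest value of 322.3 and a highest of 528. Its coefficient of variation was 10.67%, and of 2809 transcripts with a mean of at least 36.01 CPM, which are not matched to its own level, 87.61% varied more. INSIG1 stood at 130.8 ± 19.11 CPM (106.1 to 177.3), FDFT1 at 144.8 ± 21.22 CPM (114.2 to 189.3), and both varied by less than the median of these transcripts, at 14.61% and 14.65% against 15.89%. SQLE, IDI1 and DHCR7 varied more. SQLE stood at 75.82 ± 14.22 CPM (54.71 to 111.9, 18.75%), DHCR7 at 41.67 ± 8.395 CPM (24.67 to 62.17, 20.15%) and IDI1 at 36.01 ± 7.757 CPM (25.1 to 53.03, 21.54%). HMGCS1 behaved differently. Its listed transcript had 0 counts in 7 of the 28 animals, a median of 2.524 CPM and a highest value of 14.44 CPM. Each gene symbol in the table has 1 transcript, so reads that were assigned to other transcripts of HMGCS1 are not in this value, and its log2 differences carried standard errors of 0.88 to 1.78.

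**Figure D1:**
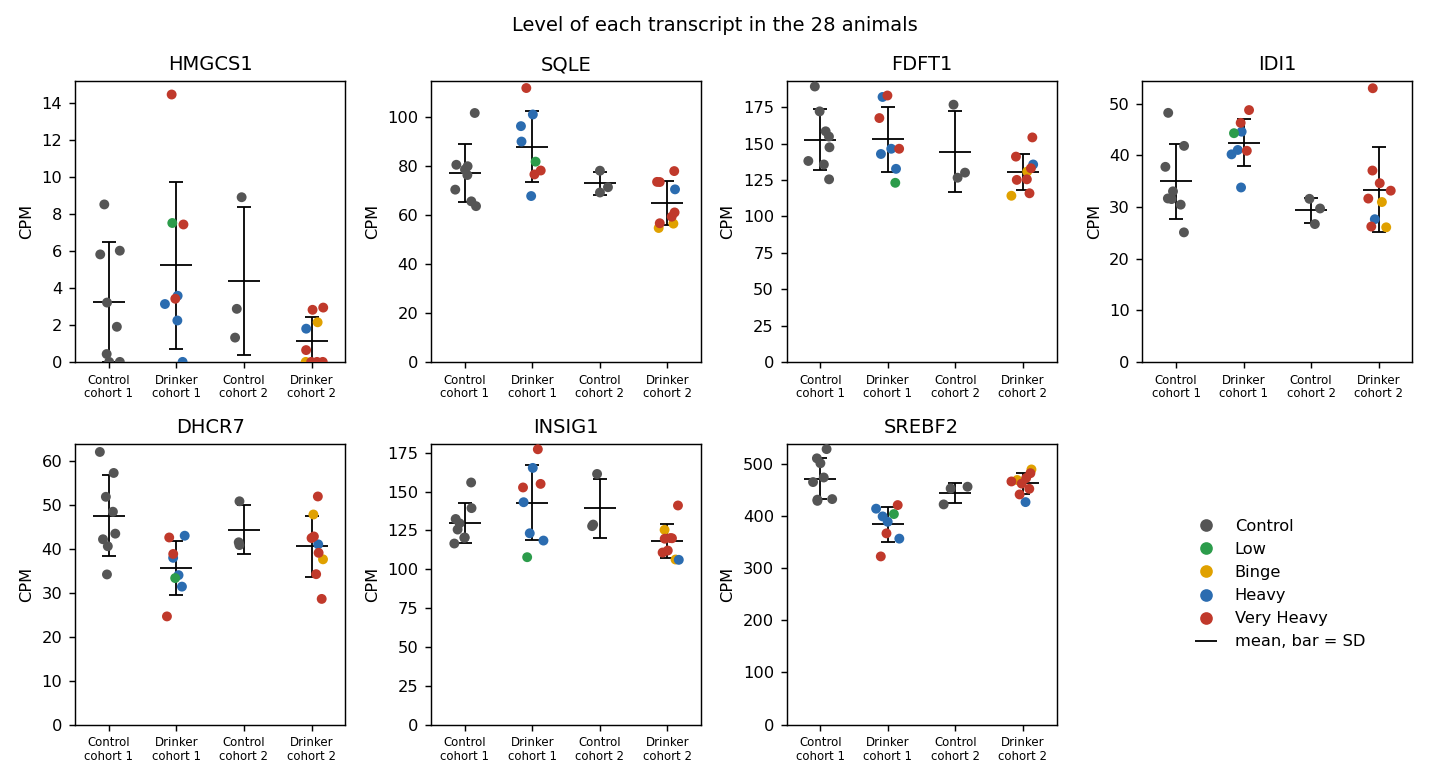
Level of each of the 7 genes in every animal, in CPM, with 1 panel per gene and a column each for controls and drinkers of cohorts 1 and 2. Points are animals coloured by drinking category, the long line is the group mean and the bar its SD. In the SREBF2 panel the 8 drinkers of cohort 1 (322.3 to 420.7 CPM) all lie below the 8 controls of the same cohort (428.8 to 528 CPM).

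The first question was whether the genes differed between animals with and without a drinking history. Over all 28 animals DHCR7 showed the clearest difference. It stood between 24.67 and 52.02 CPM in the 17 drinkers, with a median of 38.91, and between 34.24 and 62.17 CPM in the 11 controls, with a median of 43.54. The groups overlapped, but 15 of the 17 drinkers were below the control median. The log2 difference was -0.28 (SE 0.10, a change of -17.9%), with p = 0.00734 and an adjusted p of 0.657 in edgeR's quasi-likelihood test over 13769 transcripts. With cohort as a term it was -0.311 (p = 0.00551, adjusted p = 0.45 by edgeR). SREBF2 had a median of 426.4 CPM in drinkers against 455.9 in controls, and 8 drinkers lay below every control. Its log2 difference was -0.12 (SE 0.06, p = 0.0444, adjusted p = 1 by edgeR). With cohort as a term in the fit it was -0.17 (p = 0.00499, adjusted p = 0.445), and with a smooth trend on transcript GC content removed from each library (the GC correction) it was -0.06 (p = 0.258). IDI1 leaned the other way, with a median of 37.08 CPM in drinkers and 31.6 CPM in controls, 13 of 17 drinkers above the control median, and a log2 difference of 0.17 (95% interval -0.05 to 0.40), or 0.109 (p = 0.335) after the GC correction and 0.247 (p = 0.0238, adjusted p = 0.599) with cohort as a term. FDFT1 (-0.09, -0.25 to 0.06), INSIG1 (-0.03, -0.19 to 0.12) and SQLE (-0.004, -0.20 to 0.19) had 95% intervals that included 0, and HMGCS1 (-0.21) had an interval from -1.94 to 1.51.

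None of the 7 passed an adjusted p of 0.05, as was true of all 13769 transcripts (0%). At an unadjusted p under 0.05 edgeR had 629 transcripts (4.57%), 2 of them among the 7, and DESeq2 called 11 transcripts (0.0799%) at an adjusted p under 0.05, none among the 7. The median log2 difference of the 7 was -0.09, against 0.00147 over all transcripts, and 6 of 7 were lower, although SQLE turned to 0.006 with median of ratios scaling. Of 42 tested genes on 7 pathway lists other than the 7 (mevalonate steps, squalene and lanosterol steps, late sterol steps, control of SREBP, uptake and lysosomal release, efflux and turnover, fatty acid genes of SREBP-1), 27 were lower and 15 higher, with a median of -0.08 and none called. Among those with the lowest p were MVD, which makes isopentenyl diphosphate (-0.41, p = 0.00376, adjusted p = 0.518), NR1H2, the oxysterol receptor LXR-beta (-0.24, p = 0.0185, or -0.14 with p = 0.0871 after the GC correction), and FASN, the fatty acid synthase (-0.27, p = 0.0314, or -0.182 with p = 0.0982 after it). All 5 tested genes of the late sterol steps had lower values, with a median of -0.14. Within cohort 1, 4 of them were lower and 1 higher (median -0.255), and within cohort 2, 2 were lower and 3 higher (median 0.0929).

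Drinkers were next set against controls within each cohort. In cohort 1 SREBF2 ran from 322.3 to 420.7 CPM in the 8 drinkers, with a median of 393.8, and from 428.8 to 528 CPM in the 8 controls, with a median of 469.2. The groups did not overlap. The same held for 25 of 13086 transcripts tested in cohort 1 (0.191%), of which 15 were lower in drinkers (0.115%). The log2 difference was -0.29 (SE 0.07, a change of -18.4%), with p = 0.000495 and an adjusted p of 0.127 by edgeR, and it ranged from -0.31 to -0.26 when each of the 16 animals was left out in turn. DESeq2 gave -0.27 and an adjusted p of 0.00272, but it called 236 transcripts (1.8%) where edgeR called 5 (0.0382%), so whether SREBF2 passes the threshold depends on the test.

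DHCR7 and IDI1 differed in opposite directions in cohort 1. DHCR7 ran from 24.67 to 43.07 CPM in drinkers (median 36.06) and from 34.24 to 62.17 CPM in controls (median 46.04), and all 8 drinkers were below the control median. Its log2 difference was -0.41 (SE 0.13, p = 0.00689, adjusted p = 0.253 by edgeR). IDI1 ran from 33.8 to 48.8 CPM in drinkers (median 42.69) and from 25.1 to 48.26 CPM in controls (median 32.36), and all 8 drinkers were above the control median. The ranges overlapped, with Control 8 as high as 48.26 CPM, and the log2 difference was 0.29 (SE 0.12, p = 0.0279, adjusted p = 0.396). SQLE had medians of 85.92 and 77.48 CPM and a log2 difference of 0.19 (95% interval -0.02 to 0.41). INSIG1 had medians of 147.9 and 127.6 CPM and a log2 difference of 0.14 (-0.05 to 0.33), or 0.088 without Very Heavy 3. FDFT1 was at 146.5 and 151.2 CPM with a log2 difference of 0.01 (-0.19 to 0.20), and HMGCS1 at 3.49 and 2.55 CPM with 0.69 (-1.30 to 2.67, or 0.262 without Very Heavy 2 and 1.06 without Control 5).

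In cohort 1, 3 of the 7 had an unadjusted p under 0.05, as did 10.2% of all transcripts there, and none passed after adjustment. The enzymes SQLE, FDFT1, IDI1 and HMGCS1 and the SREBP-2 target INSIG1 had higher values in drinkers or values near 0, while SREBF2 itself and DHCR7 had lower ones, so the median of the 7 was 0.14 against -0.00467 over all transcripts. Among 41 other pathway genes, 31 were lower, with a median of -0.12 and none called by edgeR. FASN was at a median of 214 CPM in drinkers and 346.1 CPM in controls (log2 difference -0.50, SE 0.16, p = 0.00697, adjusted p = 0.253). MVD was at 34.01 and 52.03 CPM (-0.53, p = 0.00946) and NR1H2 at 48.03 and 68.32 CPM (-0.37, p = 0.00861). VLDLR, a lipoprotein and reelin receptor, was at 47.65 CPM in drinkers and 33.9 CPM in controls (0.38, p = 0.0453, adjusted p = 0.472).

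Some properties of the libraries moved with drinking in cohort 1. The transcripts of SREBF2 and DHCR7 are rich in G and C (58.8% and 58.1%), and those of IDI1 and HMGCS1 poor (42% and 39.8%). The GC slope of a library, the change in log2 CPM per 10 percentage points of transcript GC content relative to the mean of the 28 libraries, was -0.0504 ± 0.042 (SD) in drinkers of cohort 1 and 0.0603 ± 0.06 in controls, with ranges of -0.0934 to 0.0199 and -0.0189 to 0.159. In cohort 2 it was -0.000368 ± 0.0466 in drinkers and -0.0254 ± 0.049 in controls. With a smooth trend on GC content removed from each library, the log2 difference of SREBF2 in cohort 1 was -0.18 (SE 0.07, p = 0.0171, adjusted p = 0.583 by edgeR), that of DHCR7 -0.31 (p = 0.0259) and that of IDI1 0.18 (p = 0.148). By the same correction FASN differed by -0.33 (p = 0.0363), MVD by -0.35 (p = 0.0454) and NR1H2 by -0.21 (p = 0.0808) in cohort 1, while VLDLR was at 0.327 (p = 0.0771) and INSIG1 at 0.076 (p = 0.467). The summed level of 10 neuron markers also differed in cohort 1, from 3959 to 18440 CPM in drinkers (median 8018) and from 2582 to 9446 CPM in controls (median 4202), while in cohort 2 the medians were 4164 and 8021 CPM. SREBF2 had r = -0.546 with these markers over the 16 animals of cohort 1, and -0.468 over the 12 of cohort 2, as a description. Oligodendrocyte precursor markers summed to 503.8 to 750 CPM in drinkers of cohort 1 and 612.7 to 849.2 CPM in controls. The part of cell makeup in these differences was not tested.

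**Figure D2:**
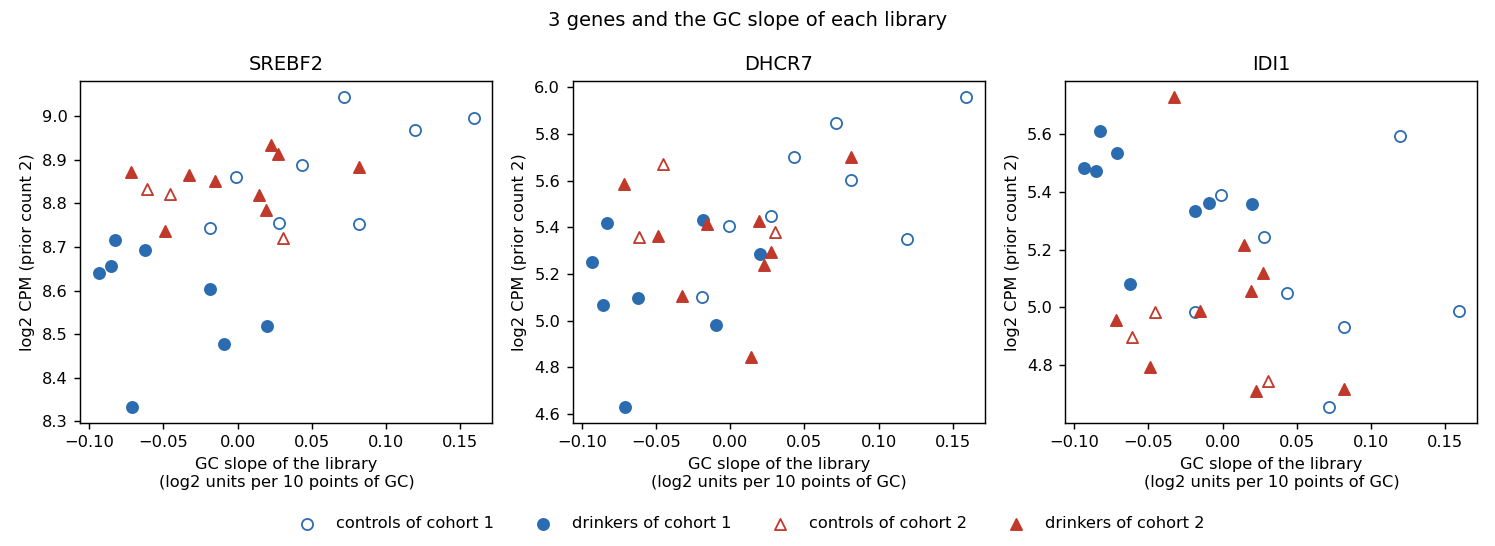
Log2 CPM of SREBF2, DHCR7 and IDI1 (vertical axes) against the GC slope of each library (horizontal axes, log2 units per 10 percentage points of GC content). Each point is an animal, with circles for cohort 1, triangles for cohort 2, filled for drinkers and open for controls. Drinkers of cohort 1 have GC slopes of -0.0934 to 0.0199 and controls of cohort 1 of -0.0189 to 0.159, and over cohort 1 the r with the slope was 0.671 for SREBF2, 0.713 for DHCR7 and -0.505 for IDI1.

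In cohort 2 SREBF2 was not lower in drinkers. It ran from 426.4 to 489 CPM in the 9 drinkers (median 466), against 422, 452.6 and 455.9 CPM in the 3 controls, and 6 drinkers were above every control. The log2 difference was 0.06 (95% interval -0.06 to 0.19). INSIG1 had the lowest p of the 7. It ran from 106.1 to 141.1 CPM in drinkers (median 119.7), against 127.8, 128.8 and 161.4 CPM in controls, and 8 of 9 drinkers were below every control. Its log2 difference was -0.24 (SE 0.10, p = 0.0298, adjusted p = 1 by edgeR), or -0.12 without Control 10, the highest of the 3. SQLE was at a median of 61.07 CPM in drinkers against 69.22, 71.37 and 78.12 CPM in controls, with 5 of 9 drinkers below every control (log2 difference -0.17, -0.39 to 0.06). DHCR7 (-0.12), FDFT1 (-0.14), IDI1 (0.19) and HMGCS1 (-1.92) had intervals that included 0. Without Control 10 the value of DHCR7 was -0.018, that of FDFT1 0.027 and that of HMGCS1 -0.863. In all, 1 of the 7 had an unadjusted p under 0.05, as did 3.76% of the transcripts tested, and edgeR called none of 12785 (0%) where DESeq2 called 22 (0.172%). The ranges of drinkers and controls overlapped for all 7, and 0.641% of transcripts had ranges that did not (0.336% lower in drinkers). Of 42 other pathway genes 24 were higher and 18 lower, with ACLY, which makes cytosolic acetyl-CoA (-0.37, p = 0.0118), and MBTPS1, a protease that cuts SREBPs in the Golgi (-0.16, p = 0.045), at the lowest p. Without Control 10 the value of ACLY was -0.157 (p = 0.193), and without Control 11 that of MBTPS1 was -0.097 (p = 0.245).

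The difference between the cohorts' drinking effects was tested as an interaction over all 28 animals. It was 0.36 on the log2 scale for SREBF2 (SE 0.10), from -0.29 in cohort 1 to 0.06 in cohort 2 as fitted within them, with p = 0.000961 and an adjusted p of 0.216 by edgeR. DESeq2 gave 0.34 and an adjusted p of 0.0169, with 157 transcripts called (1.14%) where edgeR called 2 (0.0145%). After the GC correction it was 0.22 (p = 0.0312, adjusted p = 0.608). INSIG1 (-0.38, SE 0.15, p = 0.0178, adjusted p = 0.38) and SQLE (-0.36, SE 0.17, p = 0.0446, adjusted p = 0.502) went the other way, with higher median levels in drinkers than in controls in cohort 1 and lower ones in cohort 2. These 3 of 7 stand beside 9.62% of all transcripts at an unadjusted p under 0.05. After the GC correction INSIG1 was at -0.308 (p = 0.0549) and SQLE at -0.347 (p = 0.0667), which left 1 of 7, and without Control 10 they were at -0.262 and -0.313 (p = 0.112 for each). DHCR7 had negative differences in both cohorts, though near 0 in cohort 2 without Control 10 (interaction 0.28, -0.13 to 0.70), and IDI1 positive ones (-0.10, -0.52 to 0.33, or 0.032 after the GC correction). Among the other pathway genes none was called, and those with the lowest p were ACLY (-0.57, p = 0.00735, adjusted p = 0.326), VLDLR (-0.59, p = 0.0347), FADS2 (0.55, p = 0.0364) and NR1H2 (0.42, p = 0.0437). Without Control 10 the interaction of ACLY was -0.355 (p = 0.101) and that of VLDLR -0.461 (p = 0.129), and after the GC correction VLDLR was at -0.532 (p = 0.0503), FADS2 at 0.411 (p = 0.0946) and NR1H2 at 0.253 (p = 0.154). The value of NR1H2 ran from 0.311 to 0.622 on leaving out 1 of the 3 controls of cohort 2.

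**Figure D3:**
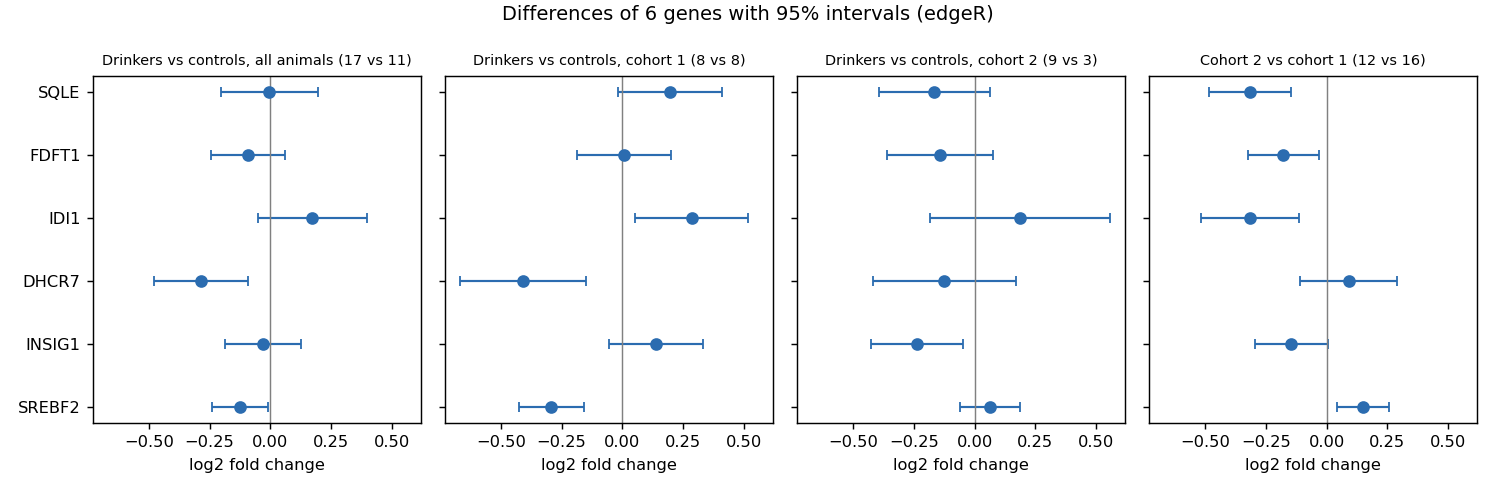
Log2 fold change of 6 of the 7 genes (horizontal axes) between drinkers and controls over all animals, in cohort 1 and in cohort 2, and between cohort 2 and cohort 1, with 95% intervals as bars. HMGCS1 is left out because its intervals are far wider. The interval of SREBF2 in cohort 1 runs from -0.43 to -0.16 and in cohort 2 from -0.06 to 0.19.

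The cohorts themselves were compared with drinking as a term in the fit. SQLE and IDI1 had lower values in cohort 2, without passing edgeR's threshold. SQLE ran from 54.71 to 78.12 CPM in the 12 animals of cohort 2 (median 69.86) and from 63.64 to 111.9 CPM in the 16 of cohort 1 (median 79.28), and all 12 lay below the median of cohort 1. The log2 difference was -0.32 (SE 0.09, a change of -19.6%, p = 0.00101, adjusted p = 0.158 by edgeR), and DESeq2 put its adjusted p at 0.0306. It was -0.44 (adjusted p = 0.0516) among drinkers alone and -0.09 (p = 0.515) among the 11 controls alone. IDI1 had medians of 31.29 and 40.56 CPM, 11 of 12 animals below the median of cohort 1, and a log2 difference of -0.32 (SE 0.10, p = 0.00451, adjusted p = 0.213), or -0.35 among drinkers alone and -0.26 (p = 0.169) among controls alone. FDFT1 (-0.18, p = 0.0236, or -0.09 with p = 0.554 among controls alone) and INSIG1 (-0.15, p = 0.0686) had lower values as well, but among controls alone INSIG1 turned to 0.093 (p = 0.402), against -0.28 (p = 0.00745) among drinkers. SREBF2 was at 458.9 against 424.8 CPM, with a log2 difference of 0.15 (SE 0.06, p = 0.0116, adjusted p = 0.295). Among drinkers alone this was 0.26 (adjusted p = 0.0385 by edgeR, beside 105 of 13195 transcripts called, 0.796%), and among controls alone -0.09 (p = 0.318).

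Of the 7, 4 had an unadjusted p under 0.05 between cohorts, against 9.8% of all transcripts, and none passed after adjustment in edgeR, which called 6 of 13769 (0.0436%) where DESeq2 called 121 (0.879%), SQLE among them. Among the other pathway genes MYLIP, a ubiquitin ligase, had a log2 difference of cohort 2 from cohort 1 of 0.31 (SE 0.10, p = 0.00454, adjusted p = 0.213), with medians of 34.8 and 24.8 CPM in drinkers of cohorts 2 and 1 and of 33.18 and 31.24 CPM in controls. Among controls alone its difference was 0.16 (p = 0.367). MBTPS1 had a log2 difference of 0.16 (p = 0.0132), or 0.25 (p = 0.0219) among controls alone and 0.108 (p = 0.192) among drinkers alone. LIPA, the lysosomal acid lipase, had the lowest p of the other pathway genes (0.00386), but its listed transcript was at 0 in 23 of 28 animals and its fold has no use. Cohort cannot be told apart from whatever else differed between the 2 sets of animals.

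Over all animals, ranges of the 7 overlapped between Heavy and Very Heavy drinkers, and between each of these groups and the controls. SREBF2 was at 356.4, 388.7, 399, 413.8 and 426.4 CPM in the 5 Heavy drinkers, and between 322.3 and 481.8 CPM in the 9 Very Heavy drinkers, with a median of 451.9. Only the highest of the Heavy drinkers belonged to cohort 2, while 6 of the 9 Very Heavy drinkers did. The log2 difference of Very Heavy from Heavy drinkers was 0.12 (95% interval -0.04 to 0.28) and turned to -0.09 in cohort 1 alone. SQLE was at 67.77, 70.5, 90.03, 96.33 and 101.1 CPM in Heavy drinkers and had a median of 73.55 CPM in Very Heavy drinkers (-0.20, -0.45 to 0.06, or -0.008 in cohort 1 alone). None of the 7 had an unadjusted p under 0.05 in this comparison, against 6.8% of all transcripts, and edgeR called no transcript (0%) where DESeq2 called 42 (0.305%), none among the 7. Ranges overlapped for all 7, and 0.0944% of transcripts had ranges that did not (0.0654% lower in Very Heavy drinkers). FADS2, a fatty acid desaturase, had the lowest p of the other pathway genes (0.42, p = 0.0211, adjusted p = 0.654), but its difference was 0.019 (p = 0.938) in cohort 1 alone. Against controls, which both comparisons share, SREBF2 differed by -0.22 in Heavy drinkers (SE 0.08, p = 0.00951, adjusted p = 0.626) and by -0.10 in Very Heavy drinkers (-0.23 to 0.03). In cohort 1 alone it differed by -0.27 in Heavy drinkers (p = 0.00769, adjusted p = 0.572) and by -0.35 in Very Heavy drinkers (p = 0.00245, adjusted p = 0.135), and after the GC correction over all animals by -0.145 in Heavy drinkers (p = 0.0668) and by -0.05 in Very Heavy drinkers (p = 0.395). DHCR7 differed by -0.32 in Heavy drinkers (p = 0.0376) and by -0.28 in Very Heavy drinkers (p = 0.0252), with edgeR's adjusted p at 0.674 and 0.912. After the GC correction the value in Heavy drinkers was -0.243 (p = 0.0815) and in Very Heavy drinkers -0.238 (p = 0.0412), and in cohort 1 alone they were -0.368 (p = 0.0511) and -0.429 (p = 0.0427). Other genes had higher values in the 3 Very Heavy drinkers of cohort 1 than in its 8 controls, with INSIG1 at 0.312 (p = 0.0109, adjusted p = 0.228) and IDI1 at 0.374 (p = 0.0358, adjusted p = 0.341). In cohort 1 alone, 1709 of 13086 transcripts had an unadjusted p under 0.05 by edgeR for Very Heavy drinkers against controls, and 999 for Heavy drinkers. Over all animals INSIG1 differed by 0.076 (p = 0.406) and IDI1 by 0.35 (p = 0.00787, adjusted p = 0.559) in Very Heavy drinkers with cohort as a term. Without that term IDI1 differed by 0.226 (p = 0.0899), and by 0.178 (p = 0.167) after the GC correction. In the main fits over all animals, 2 of 7 had an unadjusted p under 0.05 for Heavy drinkers, or none after the GC correction, beside 7.15% of transcripts. For Very Heavy drinkers it was 1 of 7, beside 4.62%. EdgeR called none of 13769 transcripts (0%) in either, and DESeq2 called 43 (0.312%) and 23 (0.167%), none among the 7. In Heavy drinkers 0.0508% of transcripts did not overlap with controls (0.0145% lower), and none of the 7. HMGCS1 (-0.01) in Very Heavy drinkers and INSIG1 (-0.01) in Heavy drinkers turned to 0.007 and 0.003 with median of ratios scaling. Among the other pathway genes MVD differed by -0.36 (p = 0.0198, adjusted p = 0.858) in Very Heavy drinkers, and by -0.72 (p = 0.0055) in cohort 1 alone. The Low drinker stood at 403.5 CPM for SREBF2, 33.41 for DHCR7 and 44.32 for IDI1, and the 2 Binge drinkers at 468.8 and 489, 47.91 and 37.69, and 30.98 and 26.08 CPM. These 3 animals were in no contrast of their own.

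Covariation between animals was measured on variance stabilized counts over the 21 pairs of the 7 genes, with 100000 permutations of the animals and Benjamini-Hochberg adjustment over the 21 pairs. The median Pearson r of the 21 pairs was 0.178, against 0.002 over all pairs of tested transcripts, which are not matched to the level of the 7. The adjusted p was under 0.05 for 9 pairs, 7 positive and 2 negative. Depending on the pair, 0.127% to 2.09% of all transcript pairs had an r at least as far from 0 in the same direction. Among pairs of the 2809 transcripts with a mean of at least 36.01 CPM, the share was 1.02% to 5.52%. HMGCS1 itself lies below that mean. SQLE, FDFT1 and INSIG1 were positively correlated with each other. SQLE and INSIG1 had r = 0.649 (permutation p = 0.00016, adjusted p = 0.00336, rho = 0.471 with p = 0.0118), and 0.127% of all transcript pairs had an r at least as high, or 1.02% of the pairs among 2809 transcripts with a mean of at least 36.01 CPM. Within cohorts r was 0.583 and 0.537, and without the 2 animals farthest from the median of SQLE it was 0.539 (adjusted p = 0.0318).

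SQLE and FDFT1, which act one after the other on squalene, had r = 0.621 (p = 0.00048, adjusted p = 0.00336, rho = 0.639 with p = 0.00038 by permutation), with 0.423 and 0.599 within cohorts 1 and 2, and 0.476 (adjusted p = 0.0612) without the 2 outermost animals. FDFT1 and INSIG1 had r = 0.567 (adjusted p = 0.00861, rho = 0.58 with p = 0.0014 by permutation), with 0.343 and 0.716 within cohorts, and 0.662 without the 2 outermost animals. Within the 8 controls of cohort 1, r of this pair was -0.0339, and within the 8 drinkers 0.551. SQLE and IDI1 had r = 0.489 (adjusted p = 0.0266, rho = 0.433 with p = 0.0225 by permutation), which was 0.473 in cohort 1 (0.0122 inside its drinkers and 0.514 inside its controls), 0.0363 in cohort 2 and 0.39 (adjusted p = 0.116) without the 2 outermost animals. HMGCS1, for all its low counts, was correlated with FDFT1 (r = 0.513, adjusted p = 0.0202, rho = 0.525 with p = 0.00462 by permutation) and INSIG1 (r = 0.471, adjusted p = 0.0285, rho = 0.523 with p = 0.00462), with 0.321 and 0.259 in cohort 1 and 0.644 and 0.684 in cohort 2. Without the 2 animals farthest from the median of HMGCS1 neither had an adjusted p under 0.05 (r = 0.444 and 0.382).

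Over all 28 animals SREBF2 was not positively correlated with the targets of its protein other than DHCR7. Its r was -0.206 with SQLE, -0.109 with FDFT1, -0.262 with INSIG1 and -0.227 with HMGCS1, none of them with an adjusted p under 0.05, and -0.442 with IDI1 (permutation p = 0.0178, adjusted p = 0.0416, rho = -0.373 with p = 0.0506). The last was -0.21 inside the drinkers and -0.103 inside the controls of cohort 1, turned to 0.113 within cohort 2, was -0.532 (adjusted p = 0.0318) without the 2 outermost animals, and no longer passed after the GC correction (-0.397, adjusted p = 0.0825). Among the 11 controls alone r of SREBF2 was 0.509 with SQLE, 0.521 with FDFT1 and 0.294 with HMGCS1, against -0.429, -0.534 and -0.539 among the 17 drinkers, and none of these had an adjusted p under 0.05, nor was the difference tested. With INSIG1 and IDI1, r of SREBF2 was 0.0633 and 0.119 among these controls and -0.426 and -0.565 among these drinkers. The 17 drinkers pool both cohorts. With SQLE, r was 0.722 inside the 8 drinkers of cohort 1 (exact permutation p = 0.041, adjusted p = 0.427 over the 21 pairs), 0.498 inside its 8 controls and -0.152 inside the 9 drinkers of cohort 2. Inside the drinkers of cohorts 1 and 2, r was -0.19 and 0.11 with FDFT1, and -0.276 and 0.157 with HMGCS1. SREBF2 and DHCR7 had r = 0.624 (p = 0.00044, adjusted p = 0.00336, rho = 0.453 with p = 0.0164 by permutation). That relation was 0.805 in cohort 1 and 0.016 in cohort 2, and 0.437 (adjusted p = 0.0754) without the 2 animals farthest from the median of DHCR7. The cohort 1 value spans drinkers and controls that did not overlap in SREBF2. Inside them r was 0.687 in the 8 drinkers (exact permutation p = 0.0564) and 0.648 in the 8 controls (exact permutation p = 0.0872), and it was 0.104 in the 9 drinkers of cohort 2. The difference between the cohorts' correlations was not tested. IDI1 and DHCR7 were inversely correlated, with r = -0.505 (permutation p = 0.00576, adjusted p = 0.0202, rho = -0.466 with p = 0.0132), -0.6 and -0.525 within cohorts, and -0.523 without the 2 outermost animals. Inside the 8 drinkers of cohort 1 r of IDI1 and DHCR7 was -0.0743, against -0.525 in the 8 controls and -0.58 in the 9 drinkers of cohort 2.

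**Figure D4:**
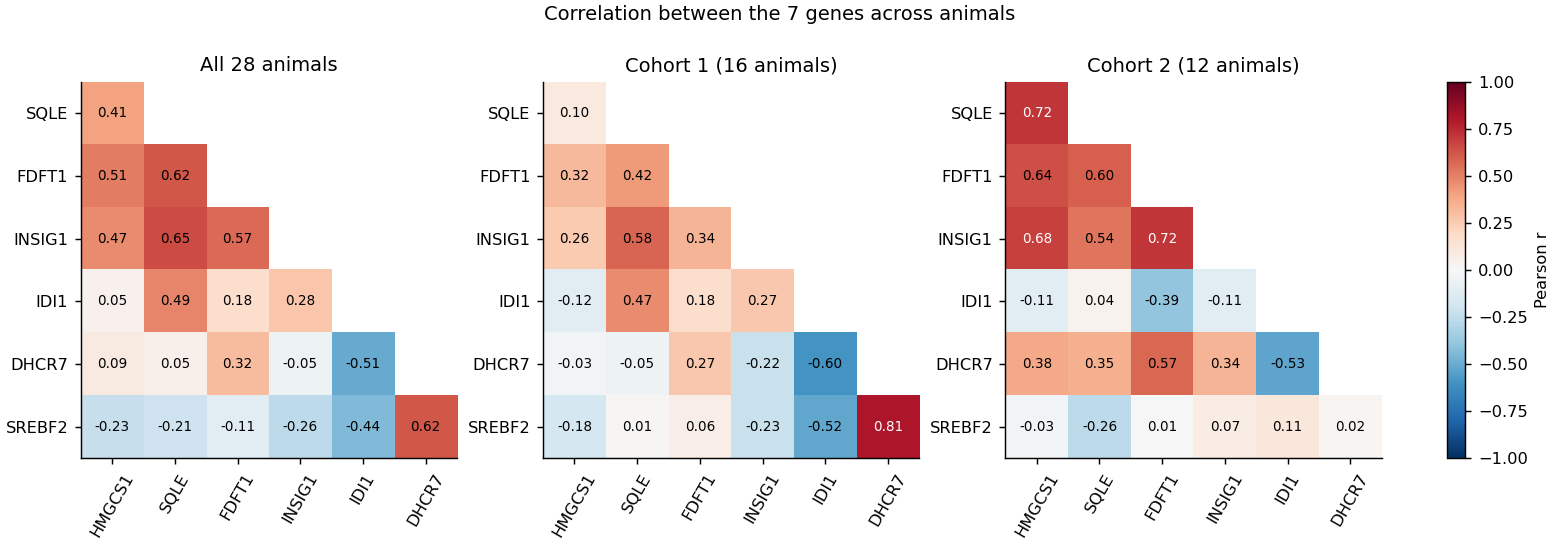
Pearson r of each pair of the 7 genes on variance stabilized counts, over all 28 animals and within each cohort, as 3 grids on 1 colour scale from -1 (blue) to 1 (red), with r printed in each cell. SQLE, FDFT1 and INSIG1 form a block of positive values (0.567 to 0.649 over all animals), and the cell of DHCR7 and SREBF2 goes from 0.805 in cohort 1 to 0.016 in cohort 2.

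After the means of drinking group and cohort were taken out, 3 of the 21 pairs had an adjusted p under 0.05, namely SQLE with INSIG1 (r = 0.572), DHCR7 with SREBF2 (0.54) and SQLE with FDFT1 (0.502). Among the 17 drinkers alone SQLE, FDFT1 and INSIG1 were correlated with each other (r of 0.697 to 0.709, each with an adjusted p of 0.0134), and among the 11 controls alone no pair passed, with r of 0.259 to 0.474 for these 3 pairs. The 17 drinkers pool both cohorts. These pairs had r of 0.47 to 0.551 inside the 8 drinkers of cohort 1 and of 0.339 to 0.544 inside the 9 of cohort 2. None of these had an adjusted p under 0.05 by exact permutation. The difference between drinkers and controls was not tested.

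Pathway genes outside the 7, of which those named here were chosen after their values were seen, were ranked by their r with the mean z-score of the 7, over 28 animals and 13762 transcripts. MSMO1, a demethylase of the late steps (r = 0.498), FDPS, which makes farnesyl diphosphate (0.497), and MVD (0.468) were all within the highest 1.58% of transcripts. At the other end were LBR (-0.494), a sterol reductase of the nuclear envelope, MYLIP (-0.474), and the cholesterol exporters ABCG1 (-0.429) and ABCA1 (-0.417). SREBF2 had its highest r among pathway genes with the fatty acid genes FASN (0.685) and FADS1 (0.613). The 10 transcripts most like the mean of the 7 were CACNG3 (r = 0.717), TUSC2 (0.713), ERG28 (0.686), ATP6V1B2 (0.686), NRIP3 (0.685), LDOC1 (0.68), CREB3L3 (0.674), CALB1 (0.655), LY6D (0.649) and CLIP3 (0.643). ERG28 encodes a scaffold protein of the sterol demethylation steps, CACNG3 an auxiliary subunit of AMPA receptors, and CALB1 the calcium buffer calbindin.

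Cell type markers varied beside the 7 genes, as a description over 28 animals with no test. The mean z-score of the 7 had r = 0.53 (rho = 0.466) with that of 10 dopamine neuron markers, and 0.792 within cohort 1 but 0.165 within cohort 2. It had r = -0.619 (rho = -0.462) with 6 endothelial markers and -0.483 (rho = -0.438) with oligodendrocyte precursor markers, of which 5 of 6 were listed. With oligodendrocyte markers, of which 9 of 10 were listed, r was -0.0591, with microglia markers 0.0139, with neuron markers 0.0415 (-0.297 in cohort 1 and 0.479 in cohort 2) and with astrocyte markers -0.247 (0.333 in cohort 1 and -0.539 in cohort 2). The summed oligodendrocyte level lay between 12410 and 22160 CPM over all animals, the astrocyte level between 1763 and 2980 CPM and the endothelial level between 298.1 and 634.6 CPM. Of the astrocyte markers SLC1A2 was listed at 0 in every animal, and of the neuron markers RBFOX3 was at 0 in 27. The part of cell makeup in the covariation was not tested.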

How the data were processed

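Libraries were made with Nugen Universal Plus mRNA chemistry. Per the labels and the study's methods, the authors trimmed reads with Trim Galore 0.6.7, quantified them with Salmon 1.9.0 against Mmul_10 and used DESeq2 1.36.0. The deposited table holds estimated counts that are not normalized, 1 transcript per gene symbol, and was rounded to whole numbers here. Of 16886 rows, 1 without a symbol (1.16e-05% of counts) was left out. Groups came from the labels and cohorts from the study's methods and source data. Differences were fitted with edgeR 4.0.16 in R 4.3.3 (quasi-likelihood, TMM scaling, at least 5 counts in at least 3 animals, Benjamini-Hochberg adjustment over all transcripts tested, threshold 0.05), separately within cohorts and with a cohort by drinking term over all 28. Variance stabilized counts came from DESeq2 1.42.0, and permutations were run in Python 3.11.15 (numpy 2.4.6, scipy 1.17.1; tables by pandas 2.3.3), where the smallest p of 100000 permutations is 1e-05. All tests are two-sided. Correlations within 1 group of 1 cohort used exact permutation. GC content was known for 94.7% of genes. Scripts were tested on simulated data. Pathway genes outside the 7 are named where their p was among the 4 lowest under 0.05 in a comparison, and the 10 transcripts of highest r with the mean z-score are named. Results of some pathway genes are not reported here. The 7 genes and all lists were chosen with earlier results of these data known. Alternatives were DESeq2, median of ratios scaling, other filters, mitochondrial transcripts left out, a GC correction, cohort as a covariate, subsets of animals, and single animals left out: each of the 16 in cohort 1, each of the 3 controls of cohort 2 there and for the interaction, and each of the 5 Heavy drinkers in their contrasts.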

Additional observations from a re-analysis of the deposited data

Results flagged for a closer look

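A single animal stood apart from the rest of its group by Dixon's criterion in 4 of 35 checks over the 7 genes, and chance alone marks about 1 in 20 such checks. SQLE was at 101.7 CPM in Control 8, where the next control of cohort 1 was at 80.54 CPM. SQLE was also at 111.9 CPM in Very Heavy 3, where the next Very Heavy drinker was at 78.2 CPM. FDFT1 was at 182.1 CPM in Heavy 2, against 146.5 CPM in the next Heavy drinker. IDI1 was at 53.03 CPM in Very Heavy 8, against 37.08 CPM in the next drinker of cohort 2. Of these, Very Heavy 3 also had the highest INSIG1 of the 28 animals, at 177.3 CPM.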

How the results depend on the processing

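Of 1029 alternative values, 897 stayed the same, 68 lost and 4 gained a call, 47 changed sign and 13 counts moved. Of the 897, 88 were counts of calls, which have no direction, and the others kept their direction and side of the threshold. None of the 7 genes was called in a main fit, so their log2 differences kept that side by staying uncalled. Choices of cohort subsets and of groups within cohorts were made after seeing the data. The number of the 7 genes called went from 0 to 1 with DESeq2 in cohort 1 (SREBF2), for the difference between cohorts' drinking effects (SREBF2) and between cohorts (SQLE), and to 1 between cohorts in drinkers alone (SREBF2). Of the 21 pairs, 9 were called over all animals, 8 after GC correction (without IDI1 and SREBF2), 3 after removing drinking and cohort means, 1 in cohort 1, 0 in cohort 2, 3 in drinkers, 0 in controls, 4 without the 2 outermost animals, and 0 in drinkers of cohort 1, 0 in controls of cohort 1 and 0 in drinkers of cohort 2, subsets that hold fewer animals. On log2 CPM 10 pairs were called, and again 10 with mitochondrial transcripts left out. HMGCS1 with SQLE gained a call there (adjusted p = 0.0328 and 0.0366 by permutation, against 0.0666 in the main setting). Of the 9 called pairs, those that changed sign were FDFT1 with INSIG1 in controls of cohort 1 (-0.034) and IDI1 with SREBF2 in cohort 2 (0.113) and in controls (0.119).

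Log2 differences that changed sign were all smaller than their errors in the main fit or rest on fewer animals, and the cause was not tested. Over all animals SQLE became 0.006 with DESeq2, 0.006 with median of ratios, 0.001 with at least 10 counts in every animal and 0.058 with cohort as a covariate. The GC correction took FDFT1 in cohort 1 to -0.008, the interaction of IDI1 to 0.032 and INSIG1 in Very Heavy drinkers against controls to -0.015. In controls alone the cohorts differed by 0.423 for HMGCS1, -0.104 for DHCR7, 0.093 for INSIG1 and -0.094 for SREBF2. For Very Heavy against Heavy drinkers FDFT1 became 0.039 with cohort as a covariate, and cohort 1 alone gave 0.123 for FDFT1, -0.061 for DHCR7 and -0.085 for SREBF2. For Very Heavy drinkers against controls HMGCS1 became 0.010 with DESeq2, 0.007 with median of ratios and 1.379 in cohort 1, SQLE 0.055 with cohort as a covariate and 0.205 in cohort 1, and FDFT1 0.117 in cohort 1. For Heavy drinkers against controls INSIG1 became 0.002 with DESeq2, 0.003 with median of ratios and 0.089 in cohort 1.

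Leaving out 1 animal at a time gave ranges across 0 for FDFT1 in cohort 1 (-0.034 to 0.054) and, on leaving out a control of cohort 2, for FDFT1 (-0.232 to 0.027) there and for the interaction of FDFT1 (-0.232 to 0.015). On leaving out a Heavy drinker, the ranges for Very Heavy against Heavy were -0.093 to 0.036 for FDFT1, -0.04 to 0.132 for IDI1, -0.024 to 0.081 for DHCR7 and -0.043 to 0.117 for INSIG1, and for Heavy against controls -0.103 to 0.025 for FDFT1 and -0.099 to 0.061 for INSIG1.

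Over all transcripts, DESeq2 called 11 for drinking, 236 in cohort 1, 22 in cohort 2, 157 for the interaction, 121 between cohorts, 42 for Very Heavy against Heavy, 23 for Very Heavy and 43 for Heavy against controls, where edgeR called 0, 5, 0, 2, 6, 0, 0 and 0. Leaving out 1 animal gave 1 to 4 calls in cohort 1 (1 without Control 2, 5 or 6, Heavy 4, the Low drinker or Very Heavy 3), 0 interactions without Control 9 or 10 and 4 without Control 11, and 1 call in cohort 2 without Control 11. In cohort 1 edgeR called 3 with no filter, 3 with at least 10 counts and 1 after GC correction, and its split of 3 higher and 2 lower became 3 and 1 with median of ratios. The GC correction left 0 interactions, and 3 passed without mitochondrial transcripts. Between cohorts edgeR called 3 with median of ratios (2 higher and 1 lower, against 5 and 1), 4 with no filter, 10 with at least 10 counts, 9 after GC correction, 105 in drinkers alone and 0 in controls alone. Cohort 1 alone gave 42 for Very Heavy against controls, 1 for Very Heavy against Heavy and 1 for Heavy against controls. No paired analysis was possible because the labels do not tie a calorie-matched control to its drinker and replicate numbers only follow the order of listing. Counts near 0 limit HMGCS1.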
